A study of Mus musculus with 9 samples.

Results

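The genes described here are 33 genes of cholesterol metabolism, chosen by name from knowledge of the pathway, and all 33 were among the 10762 genes of the deposited table. They comprised 7 enzymes of the precursor and mevalonate steps, 11 enzymes of the squalene and sterol steps, 7 genes that control the SREBP transcription factors, and 8 genes of sterol transport, storage and related regulation. Cells build cholesterol from acetyl-CoA through mevalonate, isoprenoid units, squalene and lanosterol, mainly at the endoplasmic reticulum. When sterols in that membrane run low, SCAP carries the SREBP precursors to the Golgi, where site-1 and site-2 proteases release factors that switch on the synthesis enzymes, whereas INSIG proteins hold SCAP back when sterols are plentiful. NPC1 and NPC2 release cholesterol taken up into lysosomes, SOAT1 stores it as esters, and ABCA1 exports it.

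Messenger RNA was sequenced from B16.SIY, a melanoma line from C57BL/6 mice in which the antigen SIY is joined to the fluorescent protein dsRED. Stable lines were made with lentivirus and puromycin selection and carried Decr2 shRNA1, Decr2 shRNA2 or a control shRNA, so the antigen, the virus and the drug selection were common to all 3 groups. Each group had 3 libraries, numbered 0, 1 and 2 in the titles, and the comparison asked how knockdown of Decr2, a peroxisomal 2,4-dienoyl-CoA reductase that helps to break down unsaturated fatty acids, changed gene expression. The series title speaks of tumors, but the labels describe a cultured line. Each Decr2 group rests on a single hairpin, and the labels do not say how many infected cells founded a line or whether the libraries of a line were separate cultures. The p-values therefore rest on the scatter among these 9 libraries, part or all of which may be technical.

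The values are log2 expression values as deposited. Whether they were scaled by transcript length is not stated, and no such scaling was applied here. No level is therefore compared between genes, and the read depth is unknown. Decr2 itself fell in both hairpin lines, by a log2 difference of -1.07 with shRNA1 and -2.73 with shRNA2 (limma, Benjamini-Hochberg adjusted p = 0.0195 and 0.000568), which left 47.6% and 15.0% of the control level. All 7 melanocyte lineage markers examined were listed and none passed the test with either hairpin, while of 23 markers of other cell types 1 was listed, the collagen gene Col1a1, with log2 values between -1.33 and 1.59 and no call (adjusted p = 0.103 with shRNA1 and 0.227 with shRNA2). Libraries correlated across genes at 0.966 to 0.994 within groups and at 0.955 to 0.988 between groups. In many sterol genes the libraries numbered 0 stood apart from the others of their own group, as described further on, and results that depend on them are given with and without them.

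Few of the 33 sterol genes passed at an adjusted p under 0.05 in the fit with a mean per group and no block. With shRNA1, Abca1, the cholesterol exporter, and Pmvk, the phosphomevalonate kinase of the mevalonate pathway, rose. With shRNA2, Npc1, the membrane protein through which cholesterol leaves the lysosome, and Soat1, the enzyme that esterifies cholesterol for storage, fell. In this fit no member passed with both hairpins in the same direction, and the 7 SREBP control genes included no call with either. More members, and more of all genes, passed with the replicate number as a block or without the libraries numbered 0, as given further on.

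In numbers, 2 of 33 members rose and 0 fell with shRNA1, where 12.4% of all genes passed in either direction (6.92% higher, 5.49% lower). With shRNA2, 0 of 33 rose and 2 fell, where 12.9% of all genes passed (7.27% higher, 5.67% lower). The members' share was thus 6.1% in both comparisons. At an unadjusted p under 0.05 the limma counts were 7 higher and 0 lower with shRNA1, where 28.7% of all genes passed that threshold (15.1% higher, 13.6% lower). With shRNA2 they were 2 higher and 3 lower, against 29.3% of all genes (15.8% higher, 13.5% lower). In both hairpins at once, 0 members passed with the same sign against 7.55% of all genes, and 2 members, Pmvk and Tm7sf2, had an unadjusted p under 0.05 in both, against 19% of all genes. The members' median log2 fold change was 0.13 with shRNA1 and 0.07 with shRNA2, while the median over all genes was 0.00 in both comparisons. Fold changes were positive in 24 of 33 members with shRNA1 and in 18 of 33 with shRNA2. The 2 hairpin comparisons share their control libraries, so their values are set side by side and not counted as independent.

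**Figure D1:**
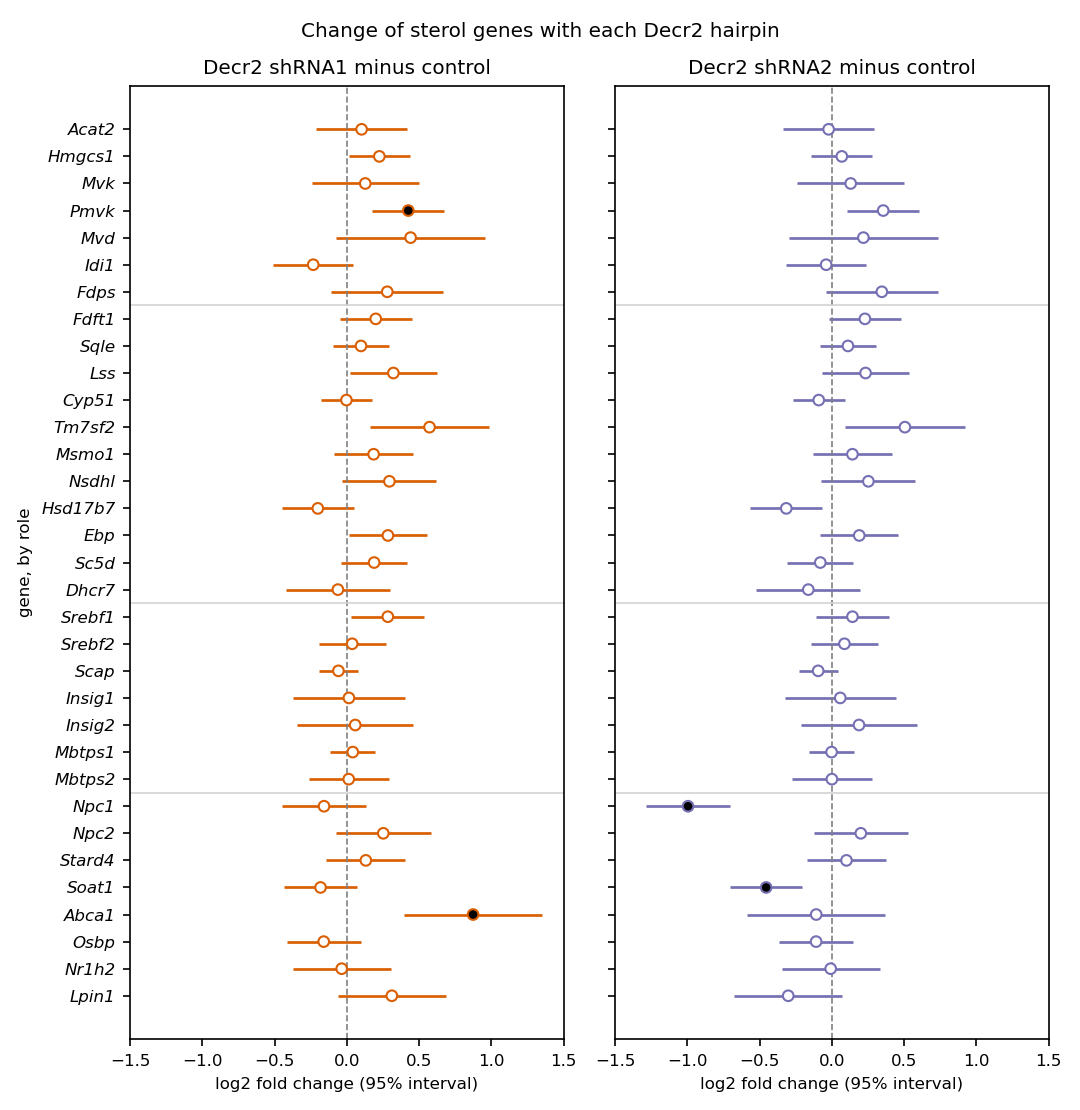
Log2 fold change of each of the 33 sterol genes for Decr2 shRNA1 (left) and Decr2 shRNA2 (right) minus control, with the 95% interval from limma; filled points passed at an adjusted p under 0.05 and grey lines separate the roles. The filled points are Pmvk and Abca1 with shRNA1, and Npc1 and Soat1 with shRNA2.

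The deviations of same-numbered libraries from their group means correlated positively in every pair. Such deviations cancel out within a group, so differently numbered pairs must covary negatively on average. No separate test of whether the numbers truly pair the libraries was run. A fit with the number as a block changed the counts for these genes. In that fit 8 members rose and 0 fell with shRNA1 (Pmvk, Mvd, Fdps, Tm7sf2, Nsdhl, Ebp, Npc2 and Abca1). Of all 10762 genes 24.6% were called, 1438 higher and 1208 lower. With shRNA2, Fdps, Tm7sf2 and Nsdhl rose and Hsd17b7, Npc1 and Soat1 fell, against 24% of all genes (1438 higher, 1145 lower). The 3 members that passed with both hairpins in the blocked fit, Fdps, Tm7sf2 and Nsdhl, all rose (9.1% of the members). Of all genes 15.4% passed with both, 987 higher and 672 lower.

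Among the 7 enzymes of the precursor and mevalonate steps, Pmvk rose with shRNA1 and no other gene passed with either hairpin. Pmvk (ENSMUSG00000027952, chr3:89454541-89469013 on the plus strand of GRCm38, protein-coding) makes mevalonate diphosphate. Its log2 values were 5.23, 4.99 and 5.02 in the shRNA1 libraries, 4.84, 5.10 and 5.09 in the shRNA2 libraries, and 4.80, 4.62 and 4.55 in the control libraries. Every hairpin library lay above the highest control, although the shRNA2 library numbered 0 did so by only 0.04. The log2 fold change was 0.42 with shRNA1 (SE 0.11, 1.34-fold, limma adjusted p = 0.0373) and 0.35 with shRNA2 (SE 0.11, adjusted p = 0.0657; 0.0503 with the block). The shRNA1 call was lost when any 1 of 7 libraries was left out (control 1 or 2, shRNA1 0, 1 or 2, shRNA2 1 or 2), with adjusted p between 0.0576 and 0.143.

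The other mevalonate enzymes gave smaller or more scattered values. Fdps, which condenses isoprenoid units into farnesyl diphosphate, had 8.67, 8.11 and 8.10 in the shRNA1 libraries, 8.51, 8.35 and 8.22 in the shRNA2 libraries, and 8.29, 7.88 and 7.87 in the control libraries. The groups overlapped only through the libraries numbered 0, and each hairpin library exceeded the control of its own number, by 0.23 to 0.37 with shRNA1 and by 0.22 to 0.46 with shRNA2. The log2 fold change was 0.28 with shRNA1 and 0.35 with shRNA2 (limma adjusted p = 0.319 and 0.218), and both passed with the block (0.0336 and 0.016). Mvd, the mevalonate diphosphate decarboxylase, had 5.89, 5.04 and 5.06 in the shRNA1 libraries, 5.27, 5.06 and 4.98 in the shRNA2 libraries, and 5.21, 4.69 and 4.77 in the control libraries. Its shRNA1 fold change of 0.44 was not called (adjusted p = 0.240) but passed with the block (0.0279). Acat2, which makes acetoacetyl-CoA, Hmgcs1, which adds the third acetyl unit, and Mvk, the mevalonate kinase, had log2 fold changes between -0.02 and 0.22 across both hairpins, and none passed in either fit. Idi1, the isomerase of the isoprenoid unit, had negative values of -0.23 with shRNA1 and -0.04 with shRNA2, neither of which passed.

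Of the 11 enzymes of the squalene and sterol steps, 0 passed with either hairpin in limma. At an unadjusted p under 0.05 the count was 3 with shRNA1 (27.3%, against 28.7% of all genes) and 2 with shRNA2 (18.2%, against 29.3%). The lowest adjusted p was 0.0745 with shRNA1, for Tm7sf2, a sterol C14 reductase, and 0.0956 with shRNA2, for Hsd17b7. Tm7sf2 had log2 values of 5.17, 4.61 and 4.71 in the shRNA1 libraries, 5.07, 4.70 and 4.51 in the shRNA2 libraries, and 4.45, 4.20 and 4.12 in the control libraries. All 6 hairpin libraries lay above all 3 controls. The log2 fold change was 0.57 (SE 0.18) with shRNA1 and 0.50 (SE 0.18) with shRNA2, and the limma adjusted p was 0.0745 and 0.104, against 0.00393 and 0.00659 with the block.

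Averaged over both hairpins, Tm7sf2 was 0.54 higher than control (limma adjusted p = 0.0457) and Pmvk 0.39 higher (0.0235), while the difference from control was -0.58 for Npc1 (0.00974) and -0.32 for Soat1 (0.049). These were the 4 members called in the average, against 17.6% of all genes (9.69% higher, 7.89% lower), and 11 passed with the block against 30.3% of all genes. Both increases in the average, and that of Soat1 in the other direction, were lost without control 1 (adjusted p = 0.105 for Pmvk, 0.162 for Tm7sf2 and 0.212 for Soat1) or control 2 (0.117, 0.176 and 0.116). Without control 0 the calls of Tm7sf2 (0.0543) and Soat1 (0.0835) were lost. Among the hairpin libraries, Pmvk lost its call without shRNA2 1 or 2, Tm7sf2 without shRNA1 2 or shRNA2 0 or 1, and Soat1 without shRNA1 1 or 2 or shRNA2 1 or 2, with adjusted p between 0.0536 and 0.0975.

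Nsdhl, which takes part in removing the C4 methyl groups of sterols, behaved much as Fdps did. Its values were 6.86, 6.48 and 6.47 in the shRNA1 libraries, 6.69, 6.53 and 6.46 in the shRNA2 libraries, and 6.58, 6.18 and 6.17 in the control libraries. The groups overlapped through the control library numbered 0, and each hairpin library lay above the control of the same number. The log2 fold changes of 0.29 with shRNA1 and 0.25 with shRNA2 (limma adjusted p = 0.217 and 0.284) passed with the block (0.0187 and 0.0342). Between these fits, Ebp, the sterol isomerase, passed only with shRNA1 and the block (0.28, adjusted p = 0.0236), and Hsd17b7, the 3-ketosterol reductase, only with shRNA2 and the block, in the lower direction (-0.32, adjusted p = 0.0448). The other 7 enzymes (Fdft1, Sqle, Lss, Cyp51, Msmo1, Sc5d and Dhcr7), which carry farnesyl diphosphate through squalene and lanosterol to cholesterol, had log2 fold changes between -0.16 and 0.32, and none passed in either fit.

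**Figure D2:**
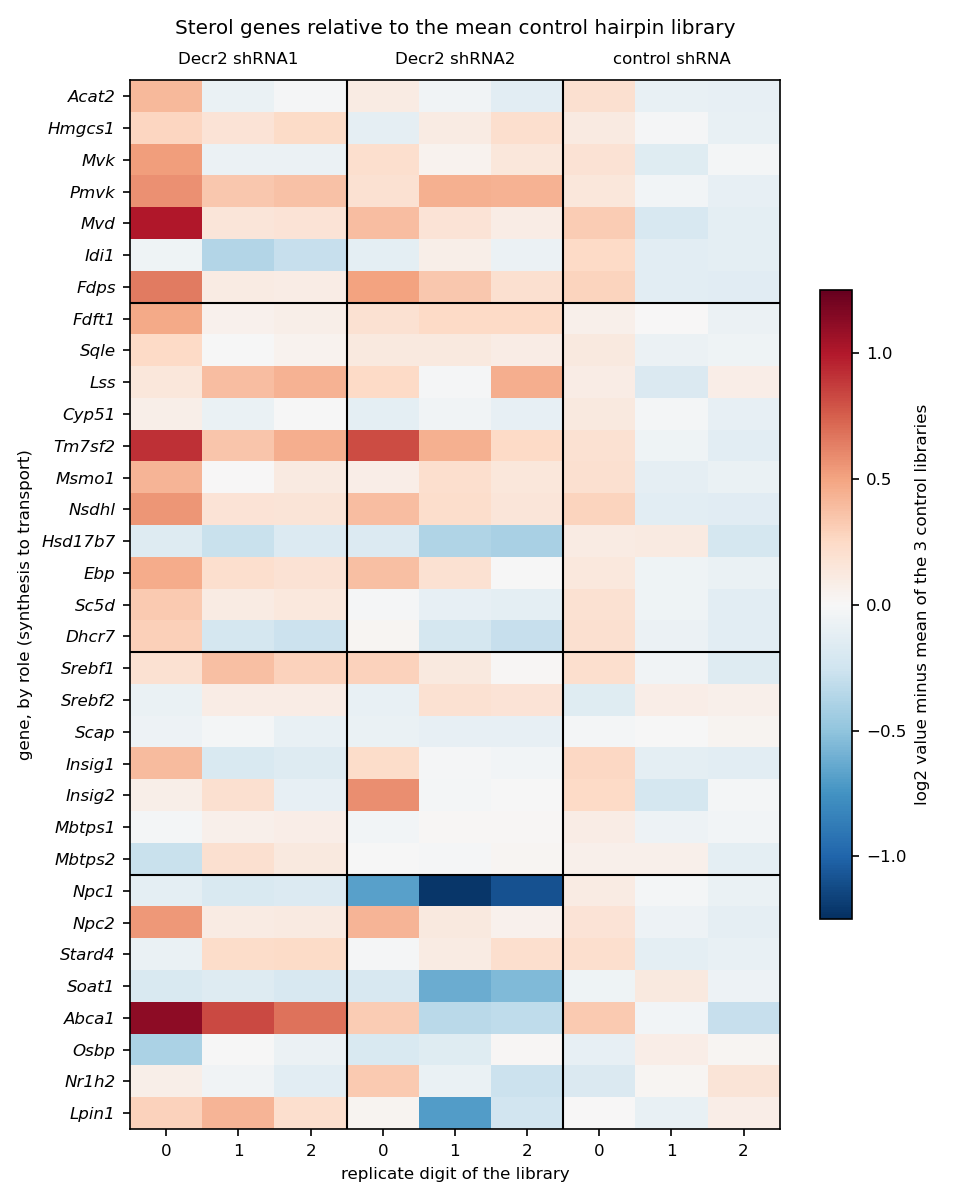
Each row is a sterol gene and each column a library; colour gives the log2 value minus the mean of the 3 control libraries, and black lines separate groups and roles. Npc1 is darkest blue in the 3 shRNA2 libraries, Abca1 is red in the 3 shRNA1 libraries, and many synthesis enzymes are reddest in the libraries numbered 0, controls included.

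The promoters of 4 members are shown because Tm7sf2 and Nsdhl rose together in the blocked fit, Abca1 rose with shRNA1 alone, and Hmgcs1 was the member whose window held a match to the sterol regulatory element searched. Each is the 150 bases before the annotated start in the RefSeq annotation of GRCm38.p6, read 5′ to 3′ along the strand of the gene, at chr13:119690201-119690350 (plus strand, Hmgcs1), chr19:6067851-6068000 (minus strand, Tm7sf2), chrX:72918371-72918520 (plus strand, Nsdhl) and chr4:53159896-53160045 (minus strand, Abca1). The Tm7sf2 stretch lies inside that gene as GENCODE M21 places it (chr19:6062821-6068373, minus strand). It therefore precedes a RefSeq start downstream of the GENCODE 5′ end and may not be the main promoter. The windows of the other 3 genes lie outside their GENCODE positions. Capitals mark letters that match a motif on either strand.
Hmgcs1: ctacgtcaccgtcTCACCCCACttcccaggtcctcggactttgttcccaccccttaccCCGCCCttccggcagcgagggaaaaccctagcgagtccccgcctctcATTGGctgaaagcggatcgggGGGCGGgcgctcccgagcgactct
Tm7sf2: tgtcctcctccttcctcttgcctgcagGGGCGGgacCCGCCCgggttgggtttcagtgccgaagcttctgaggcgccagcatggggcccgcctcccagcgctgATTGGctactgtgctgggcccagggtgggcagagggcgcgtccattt
Nsdhl: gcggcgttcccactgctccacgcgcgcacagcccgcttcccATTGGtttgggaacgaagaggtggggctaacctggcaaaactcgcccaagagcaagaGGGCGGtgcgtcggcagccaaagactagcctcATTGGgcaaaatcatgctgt
Abca1: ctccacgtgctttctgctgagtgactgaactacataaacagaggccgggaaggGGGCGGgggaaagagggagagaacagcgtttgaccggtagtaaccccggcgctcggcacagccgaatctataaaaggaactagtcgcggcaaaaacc
The motifs were the sterol regulatory element TCACNCCAC, which SREBP binds, the CCAAT box, bound by NF-Y, the GC box GGGCGG, bound by Sp1, and the ATF4 and CEBP composite element TGATGNAA. They were searched on both strands of the window from 250 bases before to 50 bases after the start, which was held for 28 of the 33 members. No window was held for Npc1, Sqle, Fdps, Fdft1 and Stard4. The last bases of a window lay in a transcript of the same gene for 23 of the 28, so some starts may be misplaced. Motifs of different kinds were counted separately, and a gene with several windows counted once.

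In Hmgcs1 the sterol element begins at position -137 from the start, with GC boxes and a reversed CCAAT box between it and the start. Tm7sf2 and Nsdhl have a reversed CCAAT box and a GC box in the stretch printed and no match to the sterol element. Of the motifs searched, Abca1 has only a GC box there. Elements of other factors, such as the sterol-activated receptor LXR, were not searched. Of the 28 members, 1 had the sterol element (3.57%), against 1.40% of 8596 genes of the deposited table with a window. A CCAAT box was in 21 (75%) against 43.7%, a GC box in 24 (85.7%) against 71.6%, and the ATF4 and CEBP element in 2, Idi1 and Insig2 (7.14%), against 2.57%. A match to letters is a description of the sequence and does not show that a factor binds there. Only exact matches to the form given were counted, so a gene without a match may still hold a looser form.

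None of the 7 SREBP control genes passed in limma, with or without the block. At an unadjusted p under 0.05 the count was 1 with shRNA1, Srebf1 (14.3%), and 0 with shRNA2, against 28.7% and 29.3% of all genes. Srebf1, which encodes the SREBP form best known for fatty acid synthesis genes, had log2 values of 5.89, 6.07 and 5.98 in the shRNA1 libraries, 5.98, 5.82 and 5.71 in the shRNA2 libraries, and 5.91, 5.65 and 5.54 in the control libraries. The control library numbered 0 reached into the range of both hairpin groups. The log2 fold change was 0.28 with shRNA1 (95% interval 0.03 to 0.54, adjusted p = 0.134) and 0.14 with shRNA2 (-0.11 to 0.39, 0.445). Without the 3 libraries numbered 0, the shRNA1 value was 0.43 and passed (adjusted p = 0.00295).

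Srebf2, which encodes the form best known for cholesterol genes, had 7.95, 8.12 and 8.12 in the shRNA1 libraries, 7.94, 8.22 and 8.20 in the shRNA2 libraries, and 7.88, 8.11 and 8.09 in the control libraries. The low value of each group was that of its library numbered 0, and the groups overlapped. The 95% interval of the log2 fold change ran from -0.19 to 0.27 with shRNA1 and from -0.14 to 0.32 with shRNA2. For Scap, the escort of SREBP, it ran from -0.19 to 0.08 with shRNA1 and from -0.23 to 0.04 with shRNA2, the narrowest of this group. For Insig1, the retention factor and itself an SREBP target, it ran from -0.37 to 0.40 with shRNA1 and from -0.33 to 0.44 with shRNA2. Changes of Srebf2, Scap or Insig1 mRNA larger than these bounds were not seen in these libraries, and smaller ones were not resolved. Insig2, a second retention factor, and Mbtps1 and Mbtps2, the site-1 and site-2 proteases, had log2 fold changes between -0.002 and 0.19. SREBP acts after cleavage of its protein, which these data do not measure.

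The largest change of any member was that of Npc1 with shRNA2. Npc1 (ENSMUSG00000024413, chr18:12189692-12236400 on the minus strand of GRCm38, protein-coding) had log2 values of 6.04, 5.97 and 5.99 in the shRNA1 libraries, 5.48, 4.94 and 5.07 in the shRNA2 libraries, and 6.26, 6.14 and 6.08 in the control libraries. All shRNA2 libraries lay below all others, and the shRNA1 libraries lay narrowly below the controls. Npc1 averaged 5.16 ± 0.28 with shRNA2 and 6.16 ± 0.09 in control (SD, n = 3 each). It fell with shRNA2, by a log2 difference of -0.996 (SE 0.13, 95% interval -1.29 to -0.71, limma adjusted p = 0.00316), to 50.1% of the control level. The call held when each of the 9 libraries was left out in turn, with values between -1.15 and -0.88. With shRNA1 the difference was -0.16 (95% interval -0.45 to 0.13, adjusted p = 0.454).

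Soat1 (ENSMUSG00000026600, chr1:156424525-156474331 on the minus strand, protein-coding) had 6.81, 6.85 and 6.81 in the shRNA1 libraries, 6.81, 6.39 and 6.45 in the shRNA2 libraries, and 6.95, 7.13 and 6.94 in the control libraries. All 6 hairpin libraries lay below the lowest control, and the shRNA2 library numbered 0 stood at the shRNA1 level. Soat1 fell by 0.46 with shRNA2 (SE 0.11, limma adjusted p = 0.0298), to 72.9% of the control level, and was -0.18 with shRNA1 (adjusted p = 0.313). The shRNA2 call was lost without any 1 of the 3 controls (adjusted p = 0.0533, 0.119 and 0.0779) and without shRNA2 1 (0.108) or 2 (0.107).

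Abca1 (ENSMUSG00000015243, chr4:53030787-53159895 on the minus strand, protein-coding) had 5.93, 5.63 and 5.48 in the shRNA1 libraries, 5.13, 4.47 and 4.49 in the shRNA2 libraries, and 5.13, 4.78 and 4.52 in the control libraries. The shRNA1 libraries lay above all others, while the shRNA2 and control libraries overlapped, and in every group the library numbered 0 was the highest. Abca1 rose by 0.87 with shRNA1 (SE 0.21, 95% interval 0.39 to 1.35, 1.83-fold, limma adjusted p = 0.0304; 0.000765 with the block). Against the control of the same number the shRNA1 libraries were 0.79, 0.86 and 0.97 higher. The shRNA1 call was lost without control 1 (adjusted p = 0.107) or 2 (0.117) and without shRNA1 0 (0.0568), 1 (0.0669) or 2 (0.0522). With shRNA2 the difference was -0.11 (95% interval -0.59 to 0.37, adjusted p = 0.787).

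**Figure D3:**
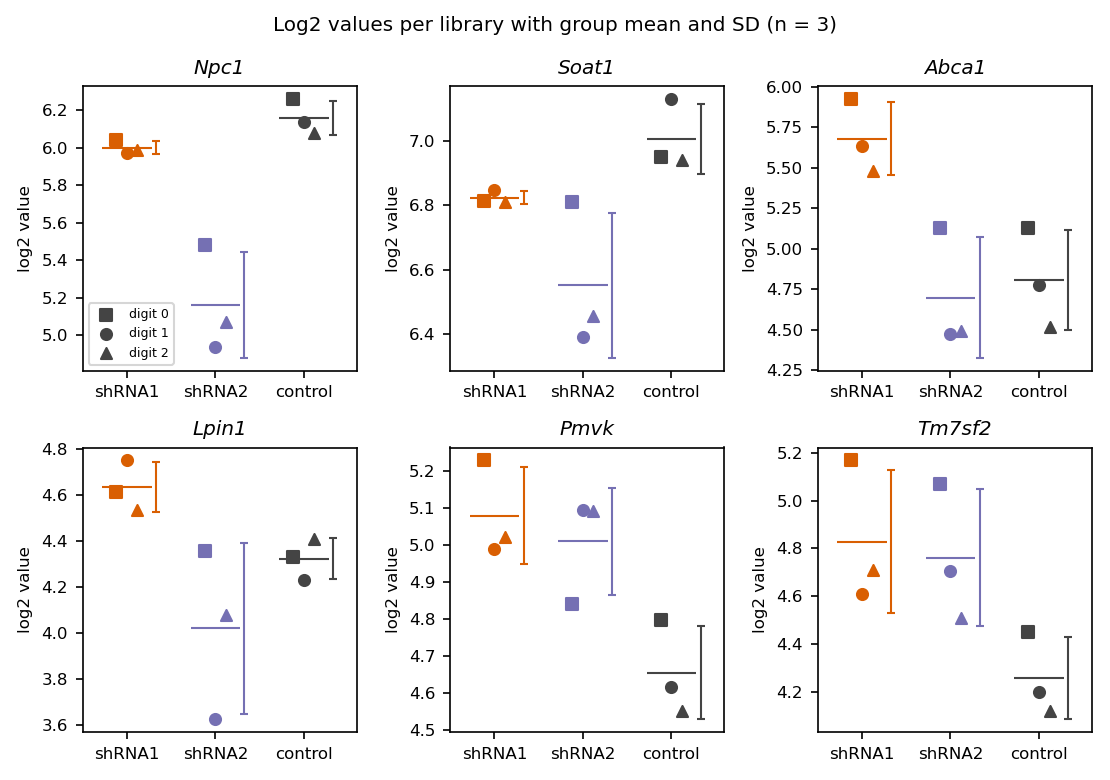
Log2 value of 6 sterol genes in each library of Decr2 shRNA1, Decr2 shRNA2 and control, with marker shape giving the library number, the line the group mean and the bar the SD (n = 3). Npc1 separates shRNA2 from the other groups and Abca1 separates shRNA1, whereas Pmvk and Tm7sf2 are above control in both hairpin groups; the vertical axes do not start at 0 and differ between genes.

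The other 5 members of the transport group did not pass without the block. Npc2, the soluble lysosomal partner of NPC1, had log2 fold changes of 0.25 with shRNA1 and 0.20 with shRNA2, of which the first passed with the block (limma adjusted p = 0.0221; 0.0515 for the second). Lpin1, a phosphatidate phosphatase that is also an SREBP target, was 0.31 with shRNA1 and -0.30 with shRNA2 (adjusted p = 0.254 and 0.265). Stard4, a cytosolic sterol carrier, Osbp, an oxysterol-binding lipid exchanger, and Nr1h2, which encodes the sterol-activated receptor LXR beta, had values between -0.16 and 0.13. Because the RNA is from whole cultures, a lower value cannot tell less RNA per cell from fewer cells that make it. In the authors' deposited table the same 4 calls were made, with adjusted p of 0.0411 for Pmvk and 0.0282 for Abca1 with shRNA1, and 0.00322 for Npc1 and 0.0307 for Soat1 with shRNA2.

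Testing the lines against each other showed where the hairpins differed. Npc1 was lower with shRNA2 than with shRNA1 by a log2 difference of -0.84 (95% interval -1.13 to -0.55, limma adjusted p = 0.0377), the only one of 33 members called, against 0.455% of all genes. That call was lost without control 1 (adjusted p = 0.0832) or 2 (0.0861), shRNA1 1 (0.137) or 2 (0.138), or shRNA2 1 (0.149) or 2 (0.161), and when the control libraries were left out of the fit. Abca1 differed by -0.98 (95% interval -1.46 to -0.50), which was not called (adjusted p = 0.114) but passed with the block (0.00487), where 2 of 33 members, Npc1 and Abca1, were called against 1.87% of all genes. Lpin1 differed by -0.61 (adjusted p = 0.200) and Soat1 by -0.27 (0.444). The 2 lines also differed in how much Decr2 remained, so the hairpin and the depth of knockdown cannot be told apart.

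The position of the hairpin libraries relative to the controls can be described without a test. All 3 shRNA1 libraries lay above every control in 7 members (Hmgcs1, Pmvk, Lss, Tm7sf2, Ebp, Abca1 and Lpin1), against 17.3% of all genes, and below every control in 2 (Npc1 and Soat1), against 16.6%. All 3 shRNA2 libraries lay above every control in 3 members (Pmvk, Fdft1 and Tm7sf2), against 20.1%, and below in 3 (Scap, Npc1 and Soat1), against 18.7%. Set against the control of the same number, all 3 shRNA1 libraries were higher in 17 members (51.5%), while 28% of all genes met that criterion. For shRNA2 the figure was 13 members (39.4%), against 31% of all genes. All 3 were lower than the same-numbered control in 5 members with shRNA1, against 27.2% of all genes, and in 7 with shRNA2, against 29.5%.

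In every group the library numbered 0 differed from the other 2 in many sterol genes. This comparison was made after the data were seen. Across groups, 13 of 33 members were higher and 2 lower in the libraries numbered 0 (limma adjusted p under 0.05), against 30.1% of all genes in either direction. The synthesis enzymes included 9 of 18 that were higher (Acat2, Mvk, Mvd, Fdps, Tm7sf2, Nsdhl, Ebp, Sc5d and Dhcr7), against 15.2% of all genes in that direction. Mvd was higher by 0.52 on the log2 scale, Tm7sf2 by 0.42, Insig1 by 0.41, Fdps by 0.40 and Abca1 by 0.50. Srebf2 was lower by a difference of -0.22 (adjusted p = 0.00604) and Osbp by -0.21 (0.035). The members' median difference was 0.16, while that of all genes was 0.006.

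**Figure D4:**
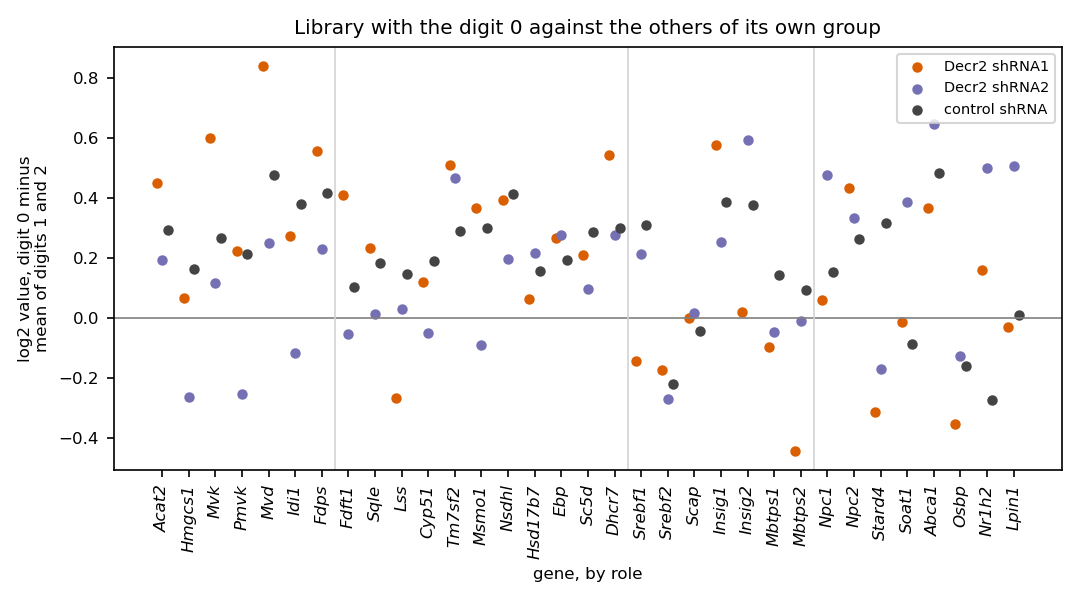
For each sterol gene, the log2 value of the library numbered 0 minus the mean of the libraries numbered 1 and 2 of the same group, with 1 point per group and grey lines between roles. Most synthesis enzymes lie above 0 in all 3 groups, controls included, and Srebf2 lies below 0 in all 3.

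Leaving out the 3 libraries numbered 0 raised the counts of members called, as it did those of all genes. With shRNA1, 13 members then rose and 1, Idi1, fell, against 34.5% of all genes (1893 of 10762 higher, 1818 lower). With shRNA2, 11 rose and 5 fell (Npc1, Soat1, Lpin1, Hsd17b7 and Nr1h2), against 37.3% of all genes (2068 higher, 1943 lower). In both hairpins 8 of 33 members rose (24.2%) and 0 fell, namely Hmgcs1, Pmvk, Mvd, Fdps, Tm7sf2, Nsdhl, Npc2 and Stard4. Of all genes 23.7% passed in both, 1355 of 10762 higher and 1192 lower. The total shares were thus close, although the member calls were all in the higher direction. In the average 19 members passed against 41.4% of all genes, and between the hairpins 5 did against 8.87%, with Idi1 higher and Npc1, Soat1, Abca1 and Lpin1 lower in shRNA2 than in shRNA1. In that subset, with 2 libraries a group, Npc1 was -1.10 with shRNA2 and -0.13 with shRNA1, and Abca1 was -0.16 with shRNA2 and 0.91 with shRNA1. What sets these libraries apart was not tested.

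Other genes around the pathway were read from 7 lists of 94 genes, of which 85 were measured. With shRNA1, 9 rose and 6 fell, and with shRNA2 likewise 9 rose and 6 fell; 8 passed with both hairpins, and 15 with the block. As shares of the 85 genes these were 17.6% with each hairpin, against 12.4% and 12.9% of all genes, and 9.4% with both, or 17.6% with the block, against 7.55% and 15.4%. Over the 85 genes together, the shares with both hairpins were thus near those of all genes. Among 14 fatty acid genes that SREBP also controls, 4 passed with both and in different directions (28.6%, against 7.55% of all genes). With each hairpin 35.7% of this list passed. With the block the shares were 42.9% with shRNA1 and 50% with shRNA2, against 24.6% and 24% of all genes. Acss2, which makes acetyl-CoA from acetate, rose by 0.58 with shRNA1 and by 0.77 with shRNA2, Mid1ip1, an activator of acetyl-CoA carboxylase, by 0.75 and 0.65, and Scd1, the stearoyl-CoA desaturase, by 0.86 and 0.44. The gene of fatty acid synthase, Fasn, fell, with values of -0.67 with shRNA1 and -1.02 with shRNA2. The limma adjusted p of these 4 genes was between 0.00191 and 0.034.

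Of 14 regulators of SREBP processing and turnover, Hspa5, the endoplasmic reticulum chaperone BiP, passed with both hairpins and fell, with values of -0.84 with shRNA1 and -1.05 with shRNA2 (limma adjusted p = 0.00207 and 0.000848). Syvn1, a ubiquitin ligase of endoplasmic reticulum degradation, passed with shRNA2 alone (adjusted p = 0.0382). In the blocked fit it passed with both hairpins, with -0.40 for shRNA1 and -0.45 for shRNA2 (0.0283 and 0.0197). With shRNA1, Hspa5 and Fbxw7 (-0.55, adjusted p = 0.0232) fell (14.3% of the list, against 12.4% of all genes). With shRNA2, Paqr3 (0.76, adjusted p = 0.0183) and Erlin2 (0.36, 0.0161) rose, and Hspa5 and Syvn1 fell (28.6%, against 12.9%). With both hairpins the list share was 7.1%, against 7.55% of all genes. With the block the shares were 21.4% with shRNA1 and 35.7% with shRNA2, against 24.6% and 24%. Of 20 sterol carriers and genes of lysosomal egress, Osbpl9, an oxysterol-binding protein relative, rose by 0.33 and 0.30 with shRNA1 and shRNA2, and Nceh1, a neutral cholesterol ester hydrolase, fell, with -0.43 and -0.32. In that list 2 rose and 1 fell with shRNA1 (15% of the list), and 8 rose and 2 fell with the block (50%, against 24.6% of all genes). With shRNA2, 4 rose and 1 fell (25%), and 6 rose and 1 fell with the block (35%, against 24% of all genes). Of 14 genes of the isoprenoid branches, Pdss2, which builds the side chain of coenzyme Q, fell, with -0.44 with shRNA1 and -0.42 with shRNA2 (adjusted p = 0.0437 and 0.0497). It was the only gene of that list called with both hairpins (7.1%, against 7.55% of all genes). Nus1 also fell with shRNA1 (-0.33, adjusted p = 0.0334). The list shares were 14.3% with shRNA1 and 7.1% with shRNA2, against 12.4% and 12.9% of all genes.

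Among 8 lipoprotein receptors and export genes, Scarb1, the receptor for high-density lipoprotein, rose with shRNA1 (0.40, limma adjusted p = 0.0108), and 0 passed with shRNA2. The list shares were thus 12.5% and 0%, against 12.4% and 12.9% of all genes. With shRNA2, 5 had an unadjusted p under 0.05 (62.5%, against 29.3% of all genes). With the block Abca7, Scarb1 and, in the lower direction, Lrpap1 passed with shRNA1 (37.5%, against 24.6% of all genes). Abca7, Abcg2, Mylip and, in the lower direction, Lrp8 passed with shRNA2 and the block (50%, against 24% of all genes). Of 6 LXR partners and oxysterol enzymes, Hsd3b7, of bile acid synthesis, and Rxrb, a partner of LXR, rose with shRNA1, by 1.36 (adjusted p = 0.0492) and 0.32 (0.0485). In that list 33.3% passed with shRNA1, against 12.4% of all genes. With shRNA2 0 passed, also at an unadjusted p under 0.05, where 29.3% of all genes did. With the block Hsd3b7 passed there too (0.58, adjusted p = 0.0132). Without the block the difference between the hairpins was called for neither gene (limma adjusted p = 0.566 for Hsd3b7 and 0.765 for Rxrb). With the block it was called for Hsd3b7, lower with shRNA2 (1 of 6 genes, 16.7%, against 1.87% of all genes). Syvn1, Fbxw7, Paqr3, Erlin2, Nus1 and the genes named from these last lists were chosen after their values were seen. Of 9 helpers of sterol synthesis, 0 passed with either hairpin. At an unadjusted p under 0.05 the count was 0 with shRNA1 and 1 with shRNA2 (11.1%), against 28.7% and 29.3% of all genes. With the block 1 helper rose with shRNA1 (11.1%, against 24.6% of all genes) and 2 fell with shRNA2 (22.2%, against 24%).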

How the data were processed

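RNA sequencing of 9 libraries was analysed from the 1 table used, which holds a log2 value per gene and library, made by the authors and used as deposited. Kallisto, FastQC and limma were used upstream, per the submitters' processing notes. For genome build, annotation, strand and low-gene filter the entry is "not given in the sources used here". Deposited fold changes (log2) and adjusted p-values of the authors served only to check calls and columns. Column codes do not spell out the hairpins: the fold changes that the authors headed shRNA1 lay within 0.05 of the columns assigned to shRNA1 for 99.95% of genes, and for 26.6% against the other columns; for shRNA2 it was 99.7%. If those headings were exchanged, the hairpin names would be too. Raised to the power of 2, values summed to between 969465 and 1045850 per library. Columns of per-library values left without a sample numbered 0.

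Tests used limma 3.58.1 in R 4.3.3 with an intensity trend, all 9 libraries, a mean per group, no filter and no pseudocount. The code was checked on simulated libraries drawn independently of each other. That check does not cover a shift shared by same-numbered libraries, nor the power for changes as small as those of most members. P-values were adjusted over all 10762 genes by Benjamini and Hochberg, and genes were called at an adjusted p under 0.05. Errors are standard errors (SE) of the fit. Deviations from the group mean correlated across genes in every same-numbered pair (r = 0.126 to 0.644). Differently numbered pairs were not examined one by one. Because the deviations cancel out within a group, their covariance must be negative on average. No separate test of the pairing was run. Values with the number as a block are given where they change a call of a member with either hairpin, and for some genes of the other lists.

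Values per library are given for members called with both hairpins, with 1 hairpin or between hairpins, for those called with both in the blocked fit, and for SREBP control genes the text turns on; other lists give up to 4 genes called with both hairpins. Members and lists were chosen with earlier results of these data known. Gene positions are from GENCODE M21 on GRCm38, and promoter windows from RefSeq on GRCm38.p6. Other fits, filters and scalings and the leaving out of each library were tried as alternatives.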

Additional observations from a re-analysis of the deposited data

Results flagged for a closer look

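The difference of Npc1 between the lines drew attention because the 2 Decr2 hairpins, set against the same control libraries, gave effects that differed by a test of the difference itself. Npc1 stood at 5.48, 4.94 and 5.07 in the shRNA2 libraries and at 6.04, 5.97 and 5.99 in the shRNA1 libraries, on the log2 scale, and the difference was -0.84 (limma adjusted p = 0.0377). It was lower with shRNA2 in 3 of 3 same-numbered pairs. No group had the 4 or more libraries that a search for single outlying libraries needs.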

How the results depend on the processing

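Counts of members called depended most on how the replicate numbers entered the fit. In the order shRNA1, shRNA2, both hairpins, average and shRNA2 over shRNA1, they were 2, 2, 0, 4 and 1 as reported, 8, 6, 3, 11 and 2 with the replicate block, and 14, 16, 8, 19 and 5 without the 3 libraries numbered 0. Leaving out 1 library gave 0 to 2, 1 to 5, 0 to 1, 1 to 4 and 0 to 1. The 5 calls with shRNA2 came without shRNA1 0, and the 1 call with both hairpins without shRNA2 0. With only the groups compared in the fit the count was 1 with shRNA1 and 0 between hairpins. A log2 minimum of 0.5 left 1 with shRNA1, 1 with shRNA2 and 2 in the average. Without the intensity trend the average gave 2. The filter on low genes, the pseudocount, the centring of libraries and the robust prior kept each count within 1.5 times. Genes of the other lists called with both hairpins were 8, and 15 with the block. The comparison of the libraries numbered 0, added after the data were seen, gave 11 to 16 members called under its alternatives, against 15. Among the members tracked one by one, the direction changed in 3, none of them called there: Abca1 with shRNA2 (-0.32 to 0.0531 over left-out libraries), Srebf2 with shRNA1 (-0.0373 to 0.0947), and Insig1 with shRNA1 (-0.18 to 0.14, and -0.05 without the libraries numbered 0) and with shRNA2 (-0.0269 to 0.19). The block changed no other call of a member with either hairpin. Motif counts searched before the start only were 1, 21, 23 and 2 members for the sterol element, CCAAT box, GC box and ATF4 and CEBP element. With unknown depth, counting error could not be given, and 3 libraries a group limit what was resolved. The causes of these shifts were not tested.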
